A study of Mus musculus with 6 samples.

Results

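The genes described here are the amino acid transporters of 6 solute carrier families, Slc1a, Slc6a, Slc7a, Slc36a, Slc38a and Slc43a, in double-positive (DP) thymocytes, the precursors of T cells that carry both CD4 and CD8. Members were taken by symbol from probe sets paired with 1 gene, leaving out the cystine transporter Slc7a11, and each gene was read from its brightest probe set, by the mean of the 6 arrays. This gave 61 of 19938 measured genes. Of these, 59 are transporters and 2, Slc6a19os and Slc7a6os, are opposite-strand genes whose symbols begin in the same way. Cells of Hdac3 knockout (KO) mice were compared with cells of wild-type (WT) mice, with 3 arrays per genotype, and Hdac3 encodes the histone deacetylase of the NCoR/SMRT corepressor complexes. All mice were untreated C57BL/6 animals aged 3 weeks. The KO strain is named after Lck and Hdac3, and Lck, a kinase of T lineage cells, gives its promoter to widely used thymocyte Cre drivers. The sources used here give neither the driver used nor the deleted part of Hdac3. The design text states that RNA of 2 mice per genotype was pooled. It does not assign mice to arrays, so the p-values speak only to the spread between arrays, which may be partly technical.

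Cells take up amino acids through carriers that differ in what they couple to. Slc1a and Slc38a proteins mostly use the sodium gradient to bring in neutral or acidic amino acids such as glutamine and glutamate. Slc7a light chains exchange amino acids across the membrane once joined to a heavy chain such as the product of Slc3a2, while several Slc36a proteins, Slc36a1 among them, move amino acids together with protons, and some work on lysosomes. In T cells, glutamine and leucine uptake feeds growth, and lysosomal carriers report amino acid supply to the growth kinase complex mTORC1.

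Values are the authors' log2 probe set intensities, and differences are KO minus WT on that scale with their standard error (SE). A gene is said to have risen or fallen where limma's moderated test, adjusted over all 23410 probe sets tested with the Benjamini-Hochberg method, gave a p under 0.05. Levels were not compared between genes, because probes differ in brightness. No detection calls were used, so the level at which a probe set exceeds background is unknown.

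The label check came first. Hdac3 had 8.28, 8.32 and 8.32 on KO arrays 1 to 3, against 9.40, 9.42 and 9.44 on WT arrays 1 to 3, a difference of -1.12 (SE 0.08, limma adjusted p = 0.00035). None of 9 measured DP markers, among them Cd4, Cd8a and Rag1, passed the test. The KO arrays had narrower distributions, with interquartile ranges of 3.06 to 3.25 against 3.29 to 3.49 on the WT arrays. For that reason each result below is also given, where it matters, after quantile normalization, which gives all arrays the same distribution. KO array 2 carried neutrophil signal: the summed linear signal of 13 neutrophil markers was 1066 on it, 334 and 344 on KO arrays 1 and 3, and 299 to 335 on the WT arrays. Of 6 double-negative stage markers, Il2ra rose by 2.28 (limma adjusted p = 0.0033) and 3 did not pass. Cd44 and Il7r fell, with differences of -0.66 and -1.19 (limma adjusted p = 0.0034 and 0.0056). None of 12 macrophage and dendritic cell markers, 7 B cell markers or 7 markers of mature single-positive cells passed, and of 11 thymic stroma markers Epcam fell (-0.37, limma adjusted p = 0.044).

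Amino acid transporter genes passed the test about as often as all probe sets did. Slc36a4, a carrier of tryptophan and proline, fell 2.19-fold, and the neutral amino acid carriers Slc1a4 and Slc38a5 rose 1.32-fold and 1.33-fold. These were 3 of the 61 members, or 4.92%, against 5.79% of all probe sets tested. The 2 rises (3.28%) compare with 1.75% of probe sets higher and the 1 fall (1.64%) with 4.04% lower, so the share of members called was near the background. The median difference of the members was 0.08, against 0.02 over all probe sets tested. The groups did not overlap for 23 members, 37.7% of the 61, against 30.0% of all probe sets. Of these members 13 were higher, 21.3% of the 61 against 13.5% of all probe sets, and 10 were lower, 16.4% against 16.5%. These shares are not matched for level, since 42 of the 61 members lay at or below the median level of all probe sets tested. All 13 higher members were among those 42, while 9 of the 10 lower ones lay above the median level. At an unadjusted p under 0.05, 19 members or 31.1% differed, against 25.2% of all probe sets. After quantile normalization 0 members were called higher, against 1.40% of all probe sets, and Slc36a4 alone lower, against 2.60%. The members' median difference was then 0.01.

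**Figure D1:**
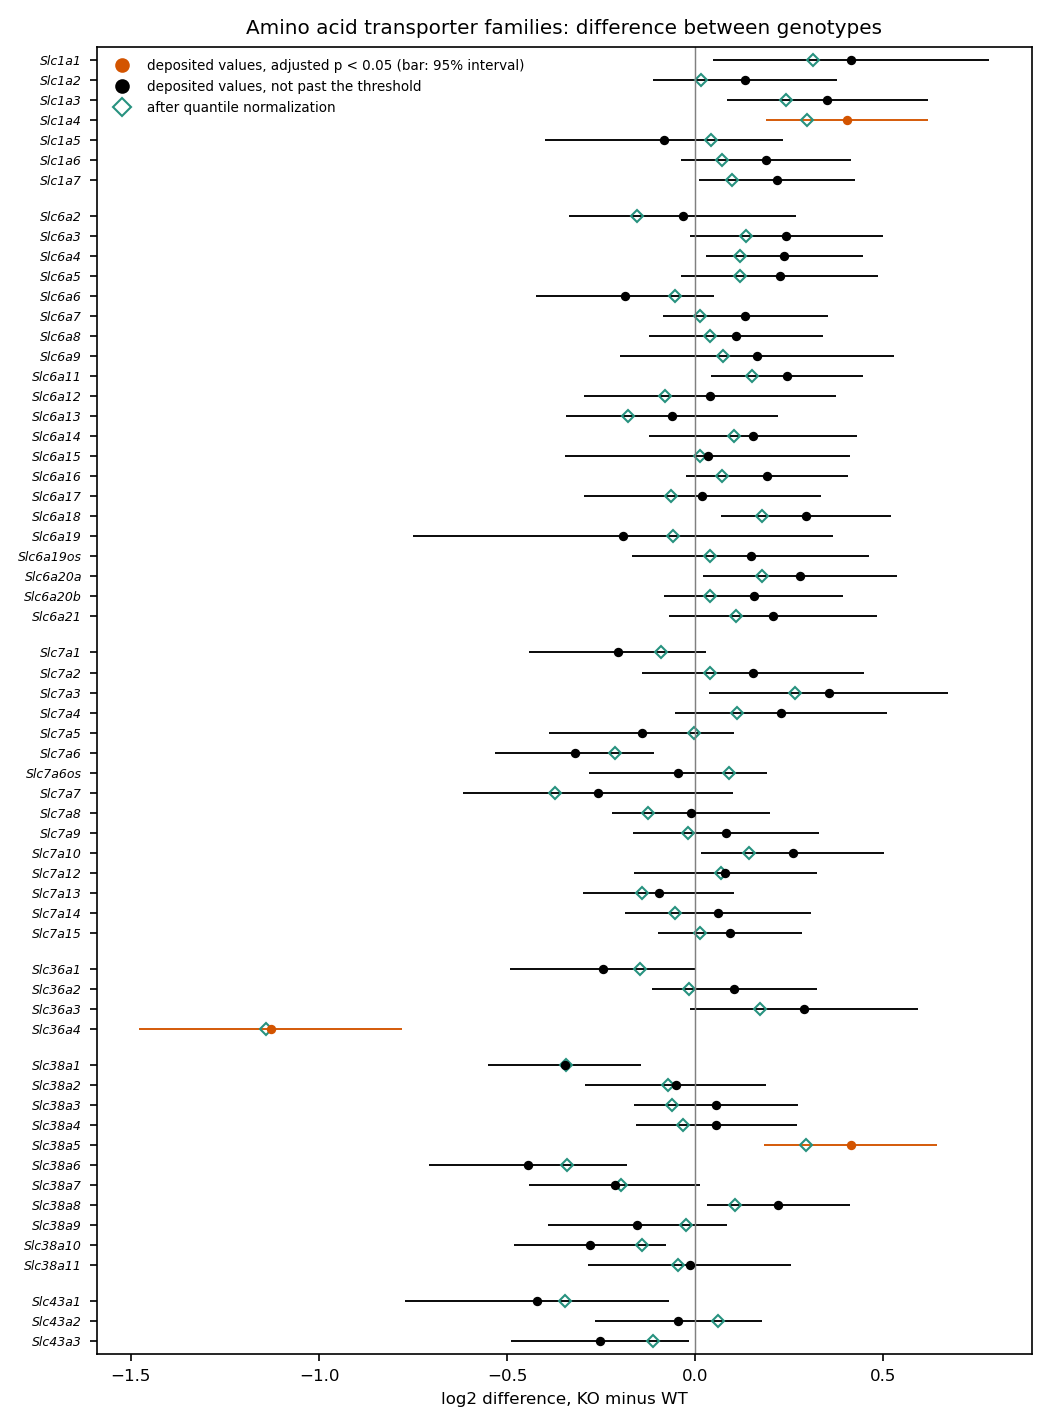
Difference between genotypes (log2, KO minus WT) for all 61 members, grouped by family, with filled points and bars for the difference and its 95% interval in the deposited values and open diamonds for the difference after quantile normalization. Slc36a4 stands apart at -1.13 (deposited) and -1.14 (quantile), while every other member lies between -0.44 and 0.41 in the deposited values.

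Slc36a4 encodes a member of the family named for proton-assisted amino acid transport, but its transport of tryptophan and proline is known as not coupled to protons. Its probe set (10583326, Entrez 234967) had log2 values of 5.70, 5.70 and 5.44 on KO arrays 1 to 3, against 6.86, 6.98 and 6.38 on WT arrays 1 to 3. All KO values lay below all WT values, and WT array 3 was the lowest of its genotype. The means were 5.61 ± 0.15 in KO and 6.74 ± 0.32 in WT (SD, n = 3 each). The difference was -1.13 (SE 0.16, 95% interval -1.48 to -0.78, limma adjusted p = 0.0045), a 2.19-fold fall. It was 1 of 119 probe sets (0.508% of those tested) that passed with at least a 2-fold change. Of all probe sets, 56 (0.239%) passed with a fall at least as large, Slc36a4 included. Leaving out WT array 3 gave a difference of -1.31 and leaving out WT array 2 gave -1.01, and it was called with each of the 6 arrays left out (limma adjusted p up to 0.026). In bulk RNA, a smaller share of cells with the transcript and less transcript per cell cannot be told apart.

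**Figure D2:**
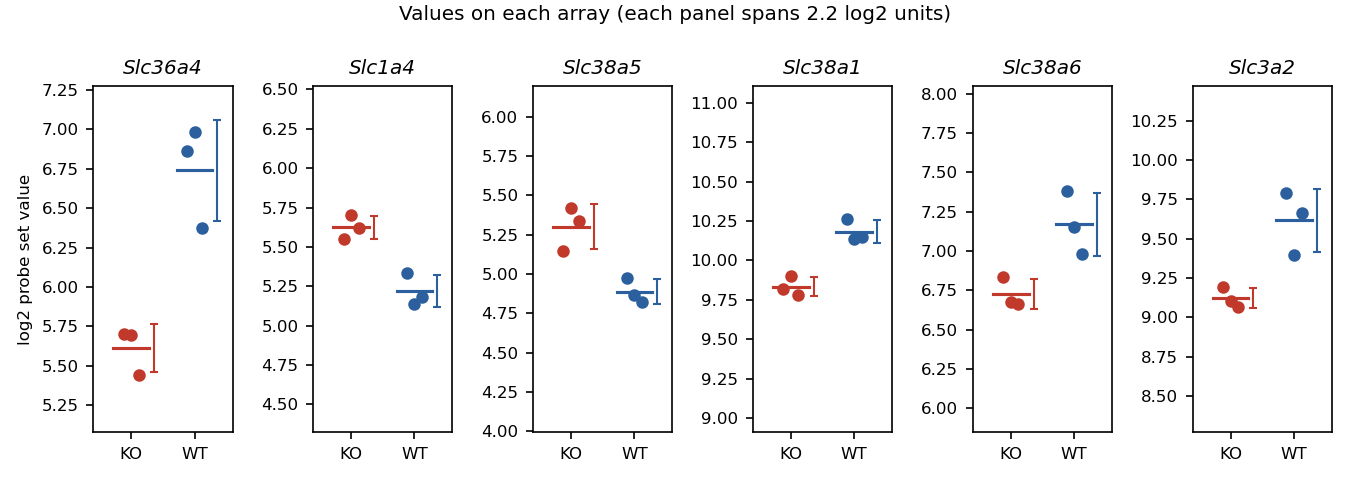
Log2 probe set values on each array for 5 members and the heavy chain gene Slc3a2, with KO left of WT, points for arrays, lines for means and side bars for 1 SD (n = 3). The KO and WT points do not overlap in any of the 6 panels, and the gap is widest for Slc36a4.

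The other 3 carriers of that family did not pass the test. Slc36a1, the lysosomal proton-coupled carrier that works beside mTORC1, had 6.82, 6.75 and 6.96 on the KO arrays and 7.27, 6.98 and 7.02 on the WT arrays. Its values did not overlap between the genotypes, but its difference of -0.25 (95% interval -0.49 to 0.0016) did not pass (limma adjusted p = 0.20). It was -0.15 after quantile normalization (limma adjusted p = 0.45). Slc36a2 and Slc36a3, carriers best known outside the thymus, had differences of 0.10 and 0.29 that did not pass (limma adjusted p = 0.53 and 0.22). After quantile normalization these differences were -0.02 and 0.17. Their values of 4.80 to 5.42 lay below the median level of all probe sets tested, 5.77.

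Slc1a4, the neutral amino acid exchanger ASCT1 that carries serine, alanine and cysteine, had values of 5.55, 5.70 and 5.62 on the KO arrays and 5.34, 5.14 and 5.18 on the WT arrays (probe set 10384539, Entrez 55963). The genotypes did not overlap. The difference was 0.40 (SE 0.10, 95% interval 0.19 to 0.62, limma adjusted p = 0.043), a 1.32-fold rise. The mean of Slc1a4 over the 6 arrays, 5.42, lay below the median level of all probe sets tested, 5.77. Tested probe sets in the bin of level nearest to it had a median difference of 0.16, and 0.05 after quantile normalization. The difference of Slc1a4 was 0.30 after quantile normalization and did not pass (limma adjusted p = 0.12). The call was also lost in each of the 6 fits with 1 array left out, where the difference was 0.36 to 0.46 (limma adjusted p up to 0.14).

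Slc38a5, a sodium-coupled carrier of glutamine, histidine and asparagine, had 5.14, 5.42 and 5.33 on the KO arrays and 4.97, 4.87 and 4.82 on the WT arrays (probe set 10598507, Entrez 209837). Again the genotypes did not overlap. The difference of 0.41 (SE 0.10, 95% interval 0.18 to 0.64, limma adjusted p = 0.048) was a 1.33-fold rise. The mean of Slc38a5 over the 6 arrays, 5.09, also lay below the median level of 5.77. Tested probe sets in the bin nearest to it had a median difference of 0.15, and 0.03 after quantile normalization. The difference of Slc38a5 was 0.30 after quantile normalization and did not pass (limma adjusted p = 0.14). With 1 array left out the difference was 0.35 to 0.49, and the call held only without KO array 1 (limma adjusted p = 0.048). Without KO array 2, the array with neutrophil signal, the differences of Slc38a5 and Slc1a4 were 0.35 and 0.36 (limma adjusted p = 0.16 and 0.14). The summed signal of 5 erythroid markers was 143 to 164 on the KO arrays and 111 to 142 on the WT arrays. All 5 lay below the median level of all probe sets tested, and 73.0% of probe sets at or below that level had a positive difference. Of these markers 1, the erythroid factor Klf1, rose, by 0.44 (limma adjusted p = 0.047, and 0.080 after quantile normalization). The globin genes on that list were not measured by a probe set of their own. The part of these cells in the rises was not tested.

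The promoters of the 3 called genes are shown so that the stretch around each start site can be read beside the changes. Each is 250 bases before to 50 bases after a RefSeq start, from RefSeq on GRCm38.p6, written 5′ to 3′ along the gene. Capitals mark a match to 1 of 3 motifs searched on both strands: TGATGNAA, the core of the amino acid response element bound by ATF4, CACGTG, the E-box bound by MYC, and AGGTCA, the half-site of nuclear receptors that recruit NCoR/SMRT.
Slc36a4 promoter (chr9:15709488-15709787, plus strand): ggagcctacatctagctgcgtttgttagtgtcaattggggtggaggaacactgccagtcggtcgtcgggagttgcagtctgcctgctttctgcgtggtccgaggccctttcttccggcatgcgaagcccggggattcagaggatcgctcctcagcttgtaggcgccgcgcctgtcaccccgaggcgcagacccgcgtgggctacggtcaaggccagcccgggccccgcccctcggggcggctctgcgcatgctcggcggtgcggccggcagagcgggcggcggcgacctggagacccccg
Slc1a4 promoter (chr11:20332664-20332963, minus strand): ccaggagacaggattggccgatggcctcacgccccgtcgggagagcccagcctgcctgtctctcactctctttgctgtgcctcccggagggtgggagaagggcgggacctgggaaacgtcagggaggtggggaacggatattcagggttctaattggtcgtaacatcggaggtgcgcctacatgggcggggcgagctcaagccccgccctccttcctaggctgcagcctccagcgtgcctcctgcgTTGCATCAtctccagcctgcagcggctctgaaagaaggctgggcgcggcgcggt
Slc38a5 promoter (chrX:8271131-8271430, plus strand): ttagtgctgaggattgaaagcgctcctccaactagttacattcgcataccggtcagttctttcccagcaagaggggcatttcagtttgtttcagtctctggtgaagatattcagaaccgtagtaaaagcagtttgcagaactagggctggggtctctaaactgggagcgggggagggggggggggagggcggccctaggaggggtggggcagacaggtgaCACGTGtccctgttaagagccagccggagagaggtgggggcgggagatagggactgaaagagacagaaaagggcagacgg
The Slc36a4 window held no match to the 3 motifs. The Slc1a4 window held the amino acid response element core on the opposite strand, and the Slc38a5 window held the E-box. Of 32851 promoters of that length in the table, 3.97% held the amino acid response element core, 7.15% the E-box and 16.3% the half-site. Members had 65 promoters of 44 genes there, of which 4, 9 and 10 promoters held these motifs, or 6.15%, 13.8% and 15.4%. No window shown held more than 1 match. A match describes letters only.

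Carriers of glutamine and other neutral amino acids in the Slc38a family were measured on 11 genes, of which Slc38a5 rose and 10 did not pass. The family's median difference was -0.05, and -0.06 after quantile normalization. Slc38a1, a system A carrier that brings glutamine into T cells, had 9.82, 9.90 and 9.78 on the KO arrays and 10.26, 10.13 and 10.15 on the WT arrays. The genotypes did not overlap, and the difference of -0.35 (SE 0.09) just missed the threshold (limma adjusted p = 0.055). It was -0.34 after quantile normalization (limma adjusted p = 0.067). A dimmer probe set of Slc38a1 had 8.38, 8.28 and 8.17 on the KO arrays and 8.84, 8.94 and 8.60 on the WT arrays. It passed, with a difference of -0.52 (SE 0.11, limma adjusted p = 0.032). Both probe sets were lower on every KO array than on any WT array, and the dimmer alone met the threshold. Its call was lost after quantile normalization (-0.39, limma adjusted p = 0.062) and in the fits without KO array 2 or 3 or WT array 1 or 2 (differences of -0.52 to -0.44, with limma adjusted p up to 0.12).

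Slc38a6, a less studied member of the family, had 6.84, 6.68 and 6.66 on the KO arrays and 7.38, 7.15 and 6.98 on the WT arrays. Its difference of -0.44 (SE 0.12) missed the threshold (limma adjusted p = 0.057), and was -0.34 after quantile normalization (limma adjusted p = 0.098). With 1 array left out, Slc38a6 was called only without WT array 3 (-0.54, limma adjusted p = 0.030). Slc38a2, the system A carrier that cells induce when amino acids are short, had 11.06, 11.37 and 11.10 on the KO arrays and 11.30, 11.15 and 11.24 on the WT arrays. These values overlapped, and the difference of -0.05 had a 95% interval of -0.29 to 0.19.

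Slc38a9, Slc38a7 and Slc38a10 of the same family did not pass. Slc38a9, the lysosomal carrier that signals arginine to mTORC1, differed by -0.15 (95% interval -0.39 to 0.08), with 8.58, 8.45 and 8.42 on the KO arrays and 8.81, 8.59 and 8.52 on the WT arrays. After quantile normalization it differed by -0.02. A dimmer probe set of Slc38a9 gave -0.24 (limma adjusted p = 0.20). Slc38a7, which exports glutamine from lysosomes, differed by -0.21 (limma adjusted p = 0.22). Slc38a10 differed by -0.28 (95% interval -0.48 to -0.08, limma adjusted p = 0.098), and the genotypes did not overlap for either gene. Slc38a10 differed by -0.14 after quantile normalization (limma adjusted p = 0.39) and was called after median centring, at -0.38 (limma adjusted p = 0.049).

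None of 14 Slc7a genes passed, neither among the 5 of the cationic group nor among the 9 light chains. Slc7a5, the light chain of LAT1 that imports leucine in growing T cells, had 7.36, 7.44 and 7.50 on the KO arrays and 7.39, 7.58 and 7.75 on the WT arrays. The values overlapped, and its difference of -0.14 (95% interval -0.39 to 0.10) was -0.0049 after quantile normalization. Slc7a6, the light chain of an exchanger of cationic and neutral amino acids, had 8.76, 8.84 and 8.75 on the KO arrays and 9.22, 9.02 and 9.08 on the WT arrays. All KO values were lower, yet the difference of -0.32 (SE 0.09) did not pass (limma adjusted p = 0.077). It was -0.21 after quantile normalization (limma adjusted p = 0.25). Slc7a6os had 8.55, 8.24 and 8.42 on the KO arrays and 8.46, 8.51 and 8.38 on the WT arrays, a difference of -0.05 with overlapping groups that was 0.09 after quantile normalization. Slc7a1, the cationic carrier that imports arginine and lysine, differed by -0.21 (95% interval -0.44 to 0.03), and by -0.09 after quantile normalization. The remaining 11 Slc7a genes lay below the median level of all probe sets, with values of at most 5.32 on any array.

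A heavy chain gene of Slc7a light chains, Slc3a2, was lower in the deposited values. Slc3a1, the other heavy chain gene measured, had a mean level of 5.46 and did not pass (-0.09, limma adjusted p = 0.66). Slc3a2, also known as CD98 heavy chain and no member of the 6 families, had 9.19, 9.11 and 9.07 on the KO arrays and 9.79, 9.40 and 9.66 on the WT arrays. The genotypes did not overlap, and the difference was -0.49 (SE 0.11, limma adjusted p = 0.041), a 1.41-fold fall. The call was lost after quantile normalization (-0.42, limma adjusted p = 0.082). With 1 array left out it held only without WT array 2, over differences of -0.60 to -0.41 (limma adjusted p up to 0.13). Slc7a11, the cystine light chain left out of the members and a partner of Slc3a2, differed by -2.77.

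Among 7 Slc1a genes, Slc1a4 rose and 6 did not pass. Slc1a5, the glutamine exchanger ASCT2, had 8.62, 8.59 and 8.84 on the KO arrays and 8.80, 8.48 and 9.02 on the WT arrays. The values overlapped, and the difference was -0.08 (95% interval -0.40 to 0.23) and 0.04 after quantile normalization. The glutamate carriers Slc1a1 and Slc1a3 had differences of 0.41 and 0.35 at dim levels, which did not pass (limma adjusted p = 0.16 and 0.11). These were 0.31 and 0.24 after quantile normalization.

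The 3 Slc43a genes, which include sodium-independent carriers of large neutral amino acids, did not pass. Slc43a1, or LAT3, had 9.41, 9.13 and 8.94 on the KO arrays and 9.89, 9.44 and 9.41 on the WT arrays. KO array 1 was as high as WT array 3 at this rounding, and the difference of -0.42 (SE 0.16) did not pass (limma adjusted p = 0.14). The difference was -0.35 after quantile normalization (limma adjusted p = 0.26). Slc43a2, or LAT4, differed by -0.05 (95% interval -0.27 to 0.18) with overlapping values, and by 0.06 after quantile normalization. Slc43a3, which carries purine bases rather than amino acids, differed by -0.25 (limma adjusted p = 0.17), and by -0.11 after quantile normalization.

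Of 20 Slc6a transporters, which include those of neurotransmitters, none passed, and differences ranged from -0.19 to 0.29. Slc6a6, the taurine carrier, had 8.44, 8.65 and 8.40 on the KO arrays and 8.75, 8.56 and 8.74 on the WT arrays, a difference of -0.19 (limma adjusted p = 0.29) that was -0.05 after quantile normalization. The creatine carrier Slc6a8 differed by 0.11 (95% interval -0.12 to 0.34), and by 0.04 after quantile normalization. Slc6a19, a neutral amino acid carrier of gut and kidney, had 8.28, 7.54 and 7.37 on the KO arrays and 8.38, 7.80 and 7.60 on the WT arrays. It was highest on array 1 of each genotype, so its SE of 0.25 was the largest among the members, and the difference of -0.19 (-0.06 after quantile normalization) did not pass (limma adjusted p = 0.66). Its opposite-strand gene Slc6a19os was also highest on array 1 of each genotype, with 5.72, 5.28 and 5.39 on the KO arrays and 5.55, 5.22 and 5.18 on the WT arrays. Whether the probes of these neighbours share signal was not tested. The other 17 Slc6a transporters lay below the median level of all probe sets.

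**Figure D3:**
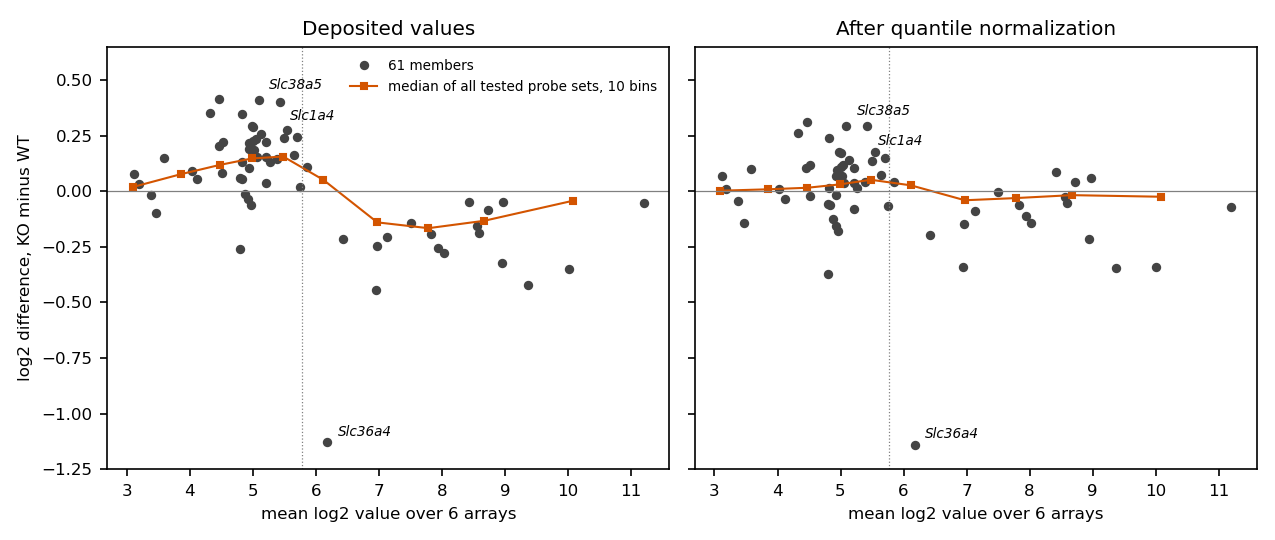
Difference between genotypes (log2, KO minus WT) against mean level (log2, over 6 arrays) for the 61 members, in deposited values (left) and after quantile normalization (right). The line joins medians of all tested probe sets in 10 bins of level, and the dotted line marks the median level of 5.77; the member differences follow the line's change of sign in the deposited values, and Slc36a4 lies far below it in both panels.

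The sign of the members' differences went with their level. Of 19 members above the median level, 18 had a negative difference, or all except Slc6a8, and of the 42 others 36 had a positive one. Over all probe sets tested, 66.8% of those above the median level had a negative difference and 73.0% of those at or below it a positive one. After quantile normalization 15 of the 19 brighter members still had a negative difference, against 54.2% of all probe sets above the median level, and their median difference was -0.09 instead of -0.21. Across the 61 members, which are not independent replicates and share the same arrays, the difference correlated with level at Pearson r = -0.52 and Spearman rho = -0.46. After quantile normalization these were -0.30 and -0.28.

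**Figure D4:**
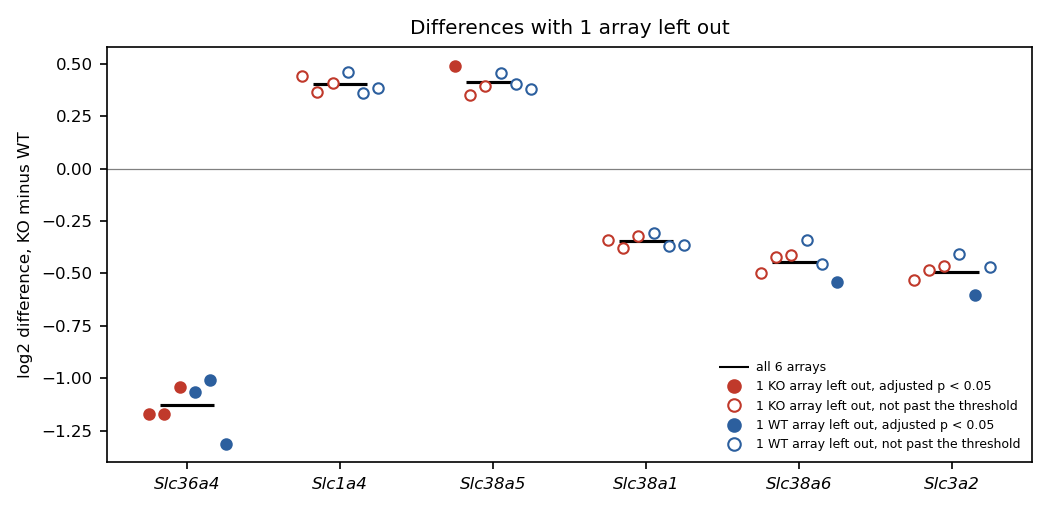
Difference between genotypes (log2, KO minus WT) for 5 members and Slc3a2 with all 6 arrays (line) and with 1 array left out (points, red for a KO array and blue for a WT array, filled where the adjusted p stayed under 0.05). Slc36a4 stayed filled in all 6 cases, Slc1a4 and Slc38a1 in none, and Slc38a5, Slc38a6 and Slc3a2 in 1 each.

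Other genes that handle amino acids were counted from 4 lists. Of 18 heavy chains and carriers of other families, Slc3a2 and Slc25a13 fell and 16 did not pass, with a list median of 0.01. Slc25a13, the mitochondrial aspartate and glutamate carrier citrin, had a mean of 5.23 ± 0.19 in KO and 6.07 ± 0.17 in WT (SD, n = 3 each). Its difference was -0.84 (SE 0.13, limma adjusted p = 0.0067).

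Of 34 measured genes of amino acid sensing and mTORC1, Sesn3 and Rptor fell and 32 did not pass, with a list median of -0.12 that was -0.04 after quantile normalization. Sesn3, a sestrin that restrains mTORC1, averaged 6.78 ± 0.14 in KO and 7.72 ± 0.17 in WT (SD, n = 3 each), a difference of -0.95 (SE 0.12, limma adjusted p = 0.0029). Rptor, the mTORC1 scaffold raptor, differed by -0.57 (SE 0.11, limma adjusted p = 0.019). Its call was lost without KO array 2 or 3 or WT array 1 or 2 (limma adjusted p up to 0.081).

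Of 19 measured enzymes of glutamine, glutamate, branched-chain amino acids and arginine, Bcat2 rose, Odc1 and Glud1 fell and 16 did not pass. Bcat2, the mitochondrial branched-chain aminotransferase, averaged 9.61 ± 0.07 in KO and 9.04 ± 0.19 in WT (SD, n = 3 each), a difference of 0.56 (SE 0.11, limma adjusted p = 0.023). That call was lost without any single KO array or WT array 2 (limma adjusted p up to 0.083). Odc1, which makes polyamines from ornithine, differed by -0.62 (SE 0.10, limma adjusted p = 0.0074). Glud1, the mitochondrial glutamate dehydrogenase, differed by -0.43 (limma adjusted p = 0.040), and was called in 1 of the 6 fits with an array left out, that without WT array 3 (limma adjusted p up to 0.13). After quantile normalization Glud1 differed by -0.30 and did not pass (limma adjusted p = 0.092).

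Of 11 genes that control the trafficking and ubiquitination of transporters, 4 fell, none rose and 7 did not pass, with a list median of -0.13. Nedd4l, a ubiquitin ligase that removes carriers and channels from the membrane, averaged 7.89 ± 0.08 in KO and 8.61 ± 0.19 in WT (SD, n = 3 each). Its difference was -0.72 (SE 0.11, limma adjusted p = 0.0085). The arrestin-domain adaptor Arrdc1 differed by -0.66 (SE 0.10, limma adjusted p = 0.0059) and Arrdc4 by -0.48 (SE 0.10, limma adjusted p = 0.030). Ndfip1, which activates ligases of the NEDD4 family, differed by -0.54 (SE 0.10, limma adjusted p = 0.018). With 1 array left out, Nedd4l and Arrdc1 passed in all 6 fits. Arrdc4 was lost without KO array 2 or 3 or WT array 1 or 2 (limma adjusted p up to 0.11), and Ndfip1 without KO array 2 or WT array 1 or 2 (limma adjusted p up to 0.065). The lists together had 1 gene higher and 10 lower of 82 measured, against 1.75% higher and 4.04% lower of all probe sets. That background is not matched for level, and 66.8% of all probe sets above the median level had a negative difference. With only probe sets of a mean level above 5.59 tested, 1 list gene was higher and 15 lower of 69. Of the 12401 probe sets then tested, 427 were higher and 1358 lower. After quantile normalization Slc3a2 and Glud1 lost their calls, and the other 9 kept theirs.

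**Figure D5:**
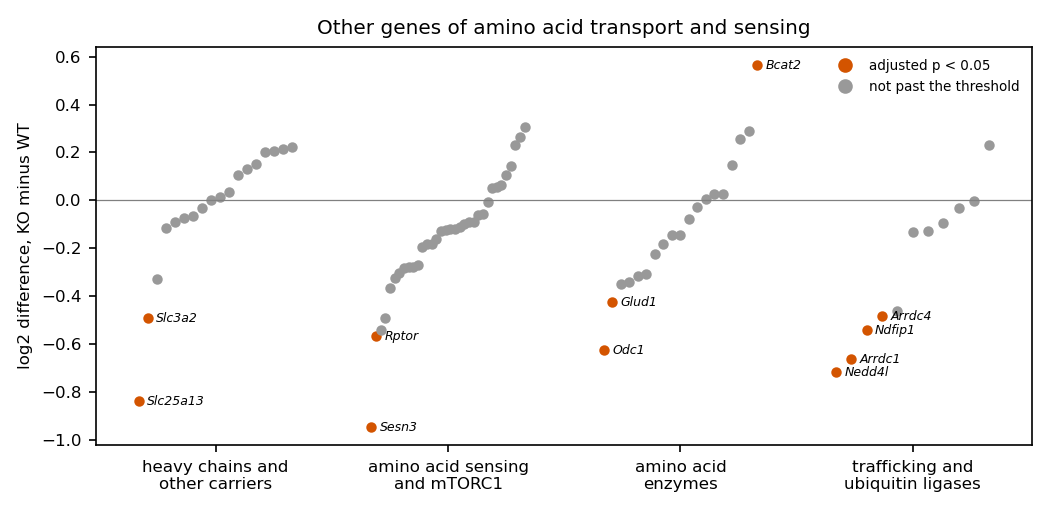
Difference between genotypes (log2, KO minus WT) for each measured gene of 4 lists of other carriers, amino acid sensing, enzymes and transporter control, in order of size within a list. The 11 called genes are named, with Bcat2 alone above 0 and Sesn3 lowest at -0.95.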

How the data were processed

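The authors deposited 1 value per probe set and array, and these were used unchanged. Their range is that of log2 intensities, though no header of the deposited table states the log2 scale. The sources used here do not give the background correction, the normalization between arrays or the probe set summary. Labelling used biotin and an Affymetrix whole-transcript sense target kit, per the labels' protocols. Groups and replicate numbers came from the sample titles.

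Probe sets were named through the platform annotation, and all 61 members matched RefSeq (GRCm38.p6) by Entrez identifier. Of 28853 probe sets, the 23410 that the annotation pairs with a gene entered limma 3.58.1 in R 4.3.3 (lmFit and eBayes, 2 group means, two-sided, Benjamini-Hochberg, threshold 0.05). An exact test of 3 against 3 arrays cannot go below 0.1. The number of arrays limits precision: the median SE of a difference was 0.11.

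Named genes are members called or above the median level, Slc3a2, Hdac3 and up to 4 called genes per list. Members, lists and rule were chosen with earlier results of these data known. Slc36a2, Slc36a3, Slc1a1, Slc1a3, Slc3a1, Slc6a19os, Slc7a11 and the marker genes were named in addition. List genes without a probe set of their own were not analysed here. Sequences and motifs were read with Python 3.11.15. Alternatives comprised other normalizations, filters, priors, array weights, a replicate block and leaving out each array.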

Additional observations from a re-analysis of the deposited data

How the results depend on the processing

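The fall of Slc36a4 was called under each of the 10 alternatives and with each array left out, with differences of -1.31 to -1.01. The 2 higher members became 0 after quantile normalization, cyclic loess, median centring, testing all probe sets, the intensity trend with robust prior and the replicate block. The filter on dim probe sets (22 members left) kept those with a mean level above 5.59. It removed Slc1a4 (5.42) and Slc38a5 (5.09) before testing, so it cannot show whether these calls hold. The 1 lower member became 5 after median centring, 4 with the filter and with the intensity trend, 3 with array weights and 2 with the mean over probe sets of a gene. Genes called lower in some of these settings were Slc38a1, Slc38a6 and Slc7a6, with Slc38a10 after median centring. The members' median was -0.021 after median centring, against 0.08 in the deposited values, and -0.19 with the filter. Median centring gave a median of all probe sets of -0.08, against 0.02, and 17 lower genes on the 4 other lists, as did array weights, against 10. With 1 array left out, 0 to 1 members were higher and 1 to 2 lower, their median was 0.05 to 0.12, and the other lists had 0 to 1 higher and 5 to 13 lower.

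Quantile normalization without KO array 2 was chosen after seeing the neutrophil signal there. It gave 0 higher members, a member median of -0.0032, and 0 higher and 4 lower genes on the other lists.

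Same-numbered KO and WT arrays deviated from their group means with correlations of 0.25, -0.07 and -0.03, so the numbers were not taken as pairs. The replicate block gave 0 higher and 3 lower members, Slc36a4, Slc38a6 and Slc43a1 (-0.42, limma adjusted p = 0.0496). Across all probe sets, 409 were called higher and 946 lower. With 1 array left out, 114 to 651 were higher and 345 to 1295 lower, the fewest without KO array 3 and WT array 1 and the most without WT array 3. Over the other settings, 149 to 778 were higher and 288 to 1863 lower, the fewest after quantile normalization without KO array 2 and the most with array weights and after median centring. The causes of these shifts were not tested. Signal over background is unknown, which limits the dim members most.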
